A study of Mus musculus with 16 samples.

Results

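10 genes known as transcriptional targets of p53 were followed through hair follicle stem cell (HFSC) organoids: Cdkn1a, Ccng1, Mdm2, Trp53inp1, Bax, Bbc3, Eda2r, Phlda3, Sesn2 and Zmat3. They were taken by name from the 32989 genes of the count table, and all 10 had enough counts to be tested. The organoids (3D-3C cultures) came from epidermal cells of 4 C57BL/6J mice and were grown for 2 weeks, either untreated or with N1-acetylspermidine (N1-AcSpd), an acetylated form of the polyamine spermidine, for 72 h. Cells were then sorted on integrin α6 and CD34, the α6+/CD34- fraction being progenitors and the α6+/CD34+ fraction HFSCs. Each mouse gave 1 library to each of the 4 groups (untreated CD34-, untreated CD34+, N1-AcSpd CD34- and N1-AcSpd CD34+), so there were 16 libraries and every group held 4 animals. The study's methods give mice of both sexes in the resting (telogen) phase of the hair cycle, at either of 2 postnatal ages, and the labels do not say which age or sex these 4 mice had. No group carried a genetic change.

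p53, encoded by Trp53 in the mouse, is a transcription factor that is kept at a low level in unstressed cells because MDM2 binds it and marks it for degradation. DNA damage and other stresses stabilise it, and it then switches on genes that halt the cell cycle, repair DNA, restrain growth signals or start apoptosis, together with Mdm2 itself, which closes a feedback loop. Its DNA site is built from a pair of half-sites, and the same site is also read by p63, the p53 relative that basal keratinocytes need.

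RNA was measured by 3' sequencing in which unique molecular identifiers (UMIs) mark single molecules, and levels are given in CPM, the UMI count of a gene set against its library total after TMM scaling, which evens out differences in composition. Libraries held 15480075 to 29074855 UMIs and most CD34- libraries were deeper than the CD34+ ones. Cd34 RNA followed the sort, at 2.88 to 3.65 CPM in CD34- and 43.4 to 64.1 CPM in CD34+ libraries. The antisense gene Gm16897, which overlaps Cd34, had 96.9% as many UMIs. The keratinocyte gene Krt5 was at 910.1 CPM or more in every library, and the bulge marker Krt15 was at 27.3 to 42.7 CPM in CD34- and 239 to 447 CPM in CD34+ libraries. Melanocyte, fibroblast and immune lists summed to at most 36.1, 1.597 and 7.26 CPM. The endothelial list came to 1687 CPM or more, almost all from Pecam1, while its members Kdr and Tek did not exceed 0.360 CPM. The endothelial marker Pecam1 was thus high, and the source of its counts was not tested.

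The promoter sequence of the targets is shown first, by whether a p53 response element was recognised in a short window around an annotated start. RefSeq windows of GRCm38.p6, from 250 bases before to 50 bases after a start, were matched for 8 of the 10 genes, and none was used here for Trp53inp1 and Zmat3. An element was taken as 2 half-sites of 10 bases at most 13 bases apart, with the central C and G of both half-sites, and the A or T bases between them, intact and at most 3 mismatches elsewhere. The element reads the same on both strands. It was found in 1 window each of Cdkn1a, Bax and Bbc3, among 11 windows of the 8 genes. By this rule 6.72% of all 32851 windows hold one. In the following stretches, written 5' to 3' on the strand of the gene, capitals mark the half-sites.
Cdkn1a (chr17:29090891-29090962, plus strand): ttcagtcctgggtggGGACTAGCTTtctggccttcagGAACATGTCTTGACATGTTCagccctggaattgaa
Bax (chr7:45467064-45467129, minus strand): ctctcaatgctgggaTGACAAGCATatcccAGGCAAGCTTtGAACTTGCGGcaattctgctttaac
Bbc3 (chr7:16309471-16309520, plus strand): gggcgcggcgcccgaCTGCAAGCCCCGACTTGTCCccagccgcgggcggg
Mdm2 (chr10:117710920-117710959, minus strand): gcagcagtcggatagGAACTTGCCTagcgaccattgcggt
Ccng1 (chr11:40755447-40755486, minus strand): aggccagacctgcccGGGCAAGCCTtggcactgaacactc
The best element of Cdkn1a had 0 mismatches, that of Bax had 2 and that of Bbc3 had 3. Of the 3 marked half-sites of Cdkn1a 2 were exact. These are the 2 furthest upstream, with unmarked bases between them, and they make up its best element. The marked bases of Cdkn1a run from position -73 to -32 relative to the first of its annotated starts, and a second start 2790 bases downstream had no element in its window. Mdm2 and Ccng1 are shown because each holds 1 exact half-site without a partner in reach, as 8.36% of all windows hold at least 1 exact half-site. No element or exact half-site was found in the windows of Phlda3, Sesn2 and Eda2r. For them, as for the full element in Mdm2 and Ccng1, this says only that these letters are not in those windows. Sequence outside the windows was not searched.

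**Figure D1:**
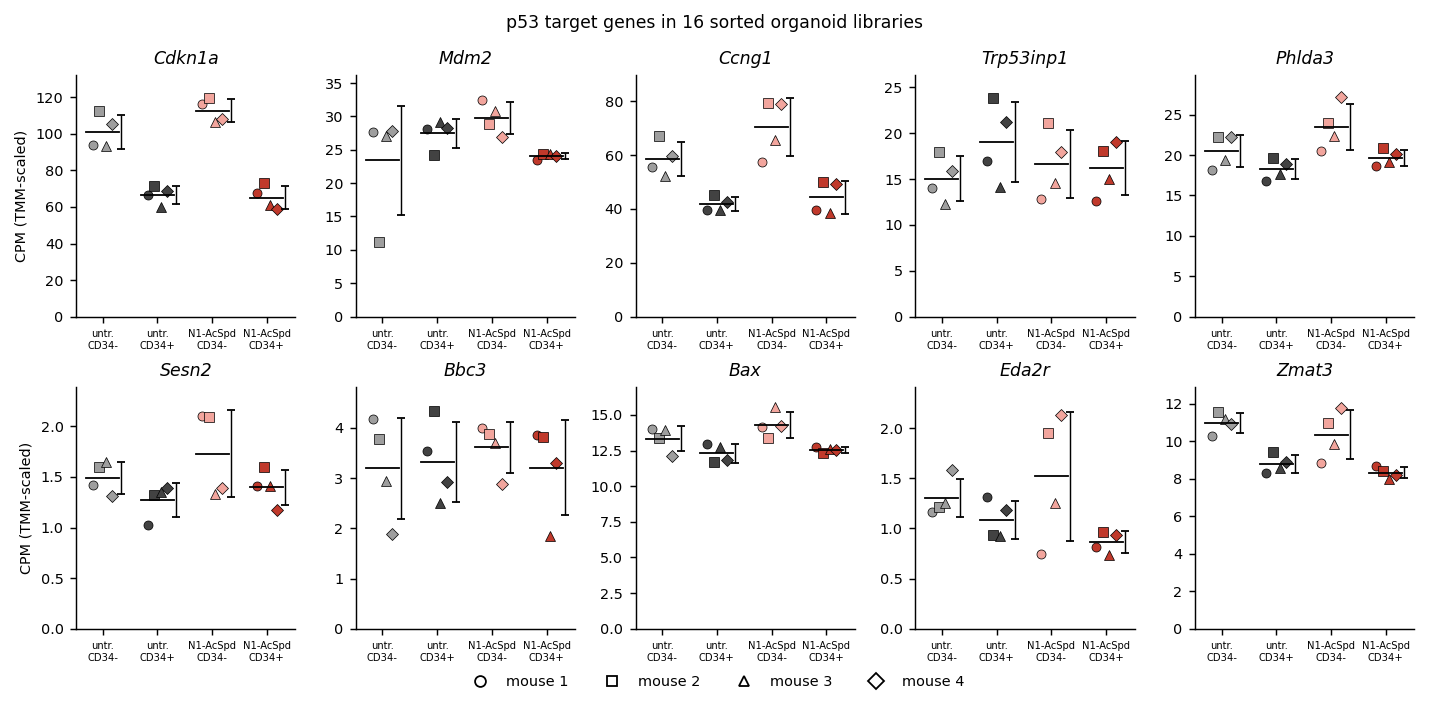
CPM (TMM-scaled) of the 10 p53 target genes in 16 libraries, by group. Symbols are single libraries, shaped by mouse, horizontal lines are group means and error bars are the SD of 4 libraries. Within each treatment, Cdkn1a, Ccng1 and Zmat3 lie lower in CD34+ than in CD34- libraries without overlap, and Mdm2 of mouse 2 stands alone at 11.1 CPM in untreated CD34- cells.

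The first comparison asked how α6+/CD34+ HFSCs differ from α6+/CD34- progenitors. Of the 10 p53 target genes, 3 were lower in untreated HFSCs (Cdkn1a, Ccng1 and Zmat3), 7 did not pass the test and 0 were higher. In N1-AcSpd-treated cells 6 were lower (the same 3 with Bax, Eda2r and Phlda3), 4 did not pass and 0 were higher. A gene was called at an adjusted p under 0.05 (edgeR quasi-likelihood test, Benjamini-Hochberg over 19049 tested genes). In untreated cells 32.1% of all tested genes were called and 16.1% were called lower in CD34+ cells, so the 3 of 10 called here are near the share over all genes, and all 3 were lower. In N1-AcSpd cells 33.3% were called and 16.8% were called lower, against 6 of 10 here. The median log2 fold change of the 10 was -0.20 in untreated and -0.31 in N1-AcSpd cells, beside 0.02 and -0.01 over all tested genes.

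Cdkn1a encodes p21, the inhibitor of cyclin-dependent kinases through which p53 stops the cell cycle. In untreated progenitors of mice 1 to 4 it stood at 94.0, 113, 93.5 and 105 CPM, and in their HFSCs at 66.3, 71.4, 59.9 and 68.8 CPM. With N1-AcSpd, progenitors held 117, 119.7, 107 and 108 CPM and HFSCs 67.6, 72.9, 61.1 and 58.9 CPM. Every HFSC library was thus below every progenitor library, whatever the treatment. The log2 fold change of HFSCs against progenitors was -0.61 (SE 0.081, adjusted p = 7.16e-05) in untreated cells and -0.79 (SE 0.081, adjusted p = 5.61e-06) in N1-AcSpd cells, so that the HFSC level was 0.657 and 0.578 of the progenitor level. The order of the means was N1-AcSpd progenitors (113 ± 6.33 CPM, SD, n = 4), untreated progenitors (101 ± 9.30), untreated HFSCs (66.6 ± 4.93) and N1-AcSpd HFSCs (65.1 ± 6.38), and neither the upper nor the lower pair of neighbours differed by the test. An unmeasured gene model of unknown coding status overlaps Cdkn1a on the other strand.

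Ccng1, which encodes cyclin G1, a regulator that brings phosphatase 2A to MDM2, was lower in HFSCs as well. Untreated progenitors of mice 1 to 4 held 55.6, 67.0, 52.3 and 59.6 CPM and untreated HFSCs 39.7, 45.0, 39.4 and 42.7 CPM. N1-AcSpd progenitors held 57.5, 79.3, 65.7 and 79.0 CPM and N1-AcSpd HFSCs 39.5, 49.99, 38.5 and 49.3 CPM. Here too no HFSC library reached the lowest progenitor library. On the log2 scale HFSCs differed by -0.49 (SE 0.12, adjusted p = 0.00569) in untreated and -0.67 (SE 0.12, adjusted p = 0.000596) in N1-AcSpd cells. Both Cdkn1a and Ccng1 stayed called in each of the 20 runs that left out 1 library or 1 mouse, in either condition.

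Zmat3 encodes a zinc finger protein that binds RNA. Its levels in mice 1 to 4 were 10.3, 11.6, 11.2 and 10.9 CPM in untreated progenitors and 8.31, 9.44, 8.57 and 8.89 CPM in untreated HFSCs. With N1-AcSpd they were 8.83, 11, 9.85 and 11.8 CPM in progenitors and 8.69, 8.43, 7.98 and 8.22 CPM in HFSCs. Within each treatment the groups did not overlap, although mouse 1 of the N1-AcSpd progenitors was below the untreated HFSCs of mice 2 and 4. HFSCs were at a log2 difference of -0.32 (SE 0.077, adjusted p = 0.00545) in untreated and -0.31 (SE 0.077, adjusted p = 0.00558) in N1-AcSpd cells. The call was lost in untreated cells without mouse 3 (adjusted p = 0.0567), in N1-AcSpd cells without mouse 4 (adjusted p = 0.0694), and in both when libraries were scaled to their plain totals (adjusted p = 0.0514 and 0.0586).

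Of the apoptosis genes Bax, Bbc3 and Eda2r, Bax and Eda2r passed the test in N1-AcSpd cells. None of them did in untreated cells, with or without a block for the mouse. Bax, whose product opens the outer mitochondrial membrane, stood at 14.0, 13.3, 13.9 and 12.1 CPM in untreated progenitors of mice 1 to 4 and at 12.97, 11.7, 12.7 and 11.8 CPM in untreated HFSCs, groups that overlapped. With N1-AcSpd it stood at 14.2, 13.3, 15.5 and 14.2 CPM in progenitors and at 12.8, 12.3, 12.6 and 12.6 CPM in HFSCs, which did not. Between the populations the log2 fold change was -0.12 (SE 0.057, adjusted p = 0.147) in untreated and -0.19 (SE 0.056, adjusted p = 0.0193) in N1-AcSpd cells. The N1-AcSpd call was lost without mouse 1 (adjusted p = 0.0626), without mouse 3 (0.106), without the progenitor library of mouse 3 (0.0802), without the HFSC library of mouse 1 (0.0515) and with plain library totals (0.389). In untreated cells it was gained without the progenitor library of mouse 4 (adjusted p = 0.0491). Bax shares 915 bases with the gene Gm45808 on the same strand, whose UMIs came to 36.3% of those of Bax, so the counting may have split reads between them.

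Bbc3 encodes PUMA, a BH3-only protein that neutralises BCL2 and its relatives, and ranged from 1.84 to 4.33 CPM over the 16 libraries. Its groups overlapped in both conditions, with log2 fold changes of 0.06 (SE 0.27, adjusted p = 0.917) and -0.17 (SE 0.26, adjusted p = 0.708). Eda2r encodes a receptor of the tumour necrosis factor family that binds ectodysplasin A2. It was among the least abundant members, at 12 to 55 UMIs a library. In N1-AcSpd progenitors of mice 1 to 4 it stood at 0.743, 1.95, 1.25 and 2.13 CPM and in HFSCs at 0.817, 0.968, 0.737 and 0.940 CPM, so that mouse 1 went against the other mice. The log2 fold change there was -0.81 (SE 0.27, adjusted p = 0.0335), beside -0.26 (SE 0.27, adjusted p = 0.538) in untreated cells. This call was lost in 8 of the 20 leave-out runs, namely without mice 2, 3 or 4, without the progenitor library of mouse 2 or 4, and without the HFSC library of mouse 1, 3 or 4, at adjusted p of 0.0542 to 0.177. It was also lost with plain library totals (0.0646), with no filter on low counts (0.0569) and with the compared groups fitted alone (0.114).

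Trp53inp1, whose product enhances the apoptotic function of p53 and takes part in autophagy, was the member with the largest positive value in untreated cells. Untreated progenitors of mice 1 to 4 held 14.0, 17.9, 12.3 and 15.9 CPM and untreated HFSCs 17.0, 23.9, 14.1 and 21.2 CPM. The level was higher in HFSCs of all 4 mice, but the groups overlapped, and mice 2 and 4 were above mice 1 and 3 in both. Its log2 fold change was 0.34 (SE 0.20, adjusted p = 0.214), and with mouse as a replicate block it was 0.33 and was called (adjusted p = 0.0136). With N1-AcSpd the levels were 12.8, 21.2, 14.6 and 17.9 CPM in progenitors and 12.6, 18.1, 14.98 and 19.1 CPM in HFSCs, and the populations differed by -0.04 on the log2 scale (SE 0.20, adjusted p = 0.928).

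Phlda3 and Sesn2 encode restraints on growth signalling, PHLDA3 by competing with AKT for membrane lipids and sestrin 2 by holding back mTORC1. Phlda3 held 18.2, 22.2, 19.4 and 22.2 CPM in untreated progenitors of mice 1 to 4 and 16.8, 19.6, 17.6 and 18.9 CPM in untreated HFSCs. It was lower in the HFSCs of all 4 mice, with overlapping groups. Its log2 fold change was -0.17 (SE 0.088, adjusted p = 0.169) and was called with mouse as a replicate block (-0.17, adjusted p = 0.0157). With N1-AcSpd, progenitors held 20.5, 24.0, 22.3 and 27.2 CPM and HFSCs 18.6, 20.9, 19.1 and 20.1 CPM, again lower in all 4 mice. The log2 fold change was -0.26 (SE 0.088, adjusted p = 0.0373). That call was lost in 10 of the 20 leave-out runs, namely without mice 2, 3 or 4, without the untreated HFSC library of mouse 3 or 4, without the N1-AcSpd progenitor library of mouse 2 or 4, and without the N1-AcSpd HFSC library of mouse 1, 3 or 4, at adjusted p of 0.0597 to 0.173. It was also lost with plain library totals (0.274), with no filter on low counts (0.0566) and with the compared groups fitted alone (0.0748). Sesn2, at 18 to 59 UMIs a library, ranged from 1.02 to 2.10 CPM, and its log2 fold changes of -0.23 (SE 0.18, adjusted p = 0.437) and -0.31 (SE 0.17, adjusted p = 0.208) did not pass.

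Mdm2, the ubiquitin ligase of the feedback loop, turned on a single library. Untreated progenitors of mice 1 to 4 held 27.7, 11.1, 27.0 and 27.8 CPM, and untreated HFSCs 28.1, 24.3, 29.2 and 28.3 CPM. The value of mouse 2 rested on 174 UMIs, and the other 7 untreated libraries lay between 24.3 and 29.2 CPM. Its log2 fold change was 0.23 (SE 0.21, adjusted p = 0.47), and without that library -0.0036. With N1-AcSpd, progenitors held 32.5, 28.9, 30.8 and 26.9 CPM and HFSCs 23.4, 24.3, 24.4 and 24.1 CPM, with no overlap. The log2 fold change was -0.31 (SE 0.21, adjusted p = 0.3). The fit shares 1 estimate of spread over the groups, and the difference was called when the untreated library of mouse 2 was left out (adjusted p = 0.00202), when mouse 2 was left out (0.00392) and when the N1-AcSpd groups were fitted alone (0.0105).

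Counted by overlap alone, 3 members in untreated cells had every HFSC library below every progenitor library. In N1-AcSpd cells 5 members did (Mdm2 and Bax beside the former 3). No member had the reverse order in either condition. Of all 19049 tested genes, 3089 in untreated and 3482 in N1-AcSpd cells had every HFSC library below every progenitor library. The reverse order was held by 3038 and 3073. Both directions together came to 32.2% and 34.4% of all tested genes. All 10 log2 fold changes were negative in N1-AcSpd cells, and 7 of 10 in untreated cells. Under the alternatives the sign changed in 6 of 270 values in N1-AcSpd cells and 5 of 270 in untreated cells, none of them called. With plain library totals Trp53inp1 was at 0.08 in N1-AcSpd cells.

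**Figure D2:**
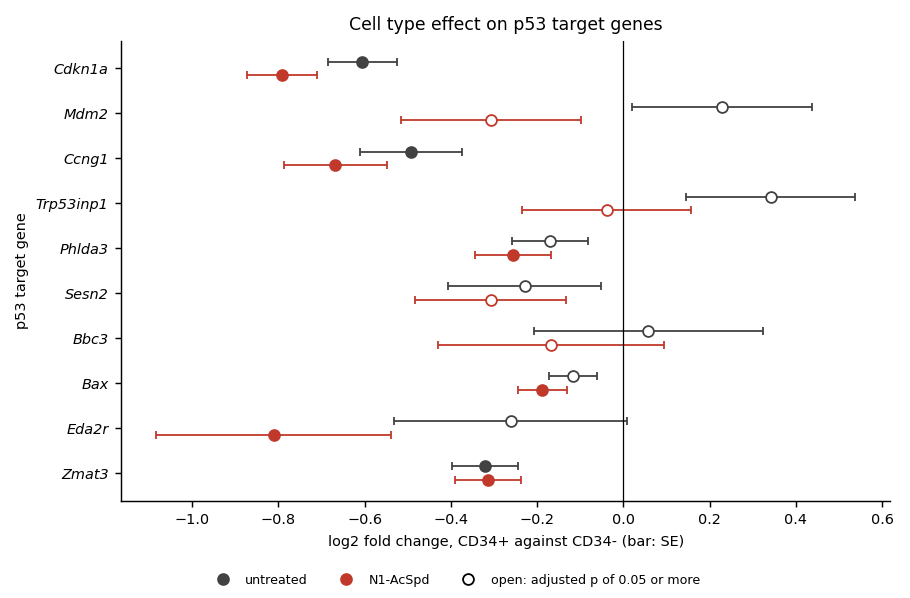
log2 fold change of the 10 p53 target genes in α6+/CD34+ against α6+/CD34- cells, with SE as error bars, for untreated (grey) and N1-AcSpd-treated cells (red). Filled points have an adjusted p under 0.05. The called genes lie below 0 in both conditions, and Mdm2, Trp53inp1 and Bbc3 lie above 0 in untreated and below 0 in N1-AcSpd cells.

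Genes of differentiation and division moved with the same sort. All 12 epidermal differentiation genes measured were lower in HFSCs in both conditions, the list summing to 1063 to 1431 CPM in untreated progenitors, 302 to 328 CPM in untreated HFSCs, 1284 to 1635 CPM in N1-AcSpd progenitors and 316 to 411 CPM in N1-AcSpd HFSCs. All 10 genes of cycling cells were higher in HFSCs, at 264 to 295, 336 to 414, 248 to 293 and 398 to 474 CPM in the same order. In untreated cells DESeq2 called 9 of these 10, and the calls of Ccnb1 and Bub1 held in 7 and 6 of 20 leave-out runs. Genes overlapping Sbsn, Tgm1 and Flg of the differentiation list had 100.3%, 99.5% and 73.9% as many UMIs. Exosc9, which overlaps the cycling gene Ccna2, had 69.8% as many. The summed levels are uncertain to that extent. The part of either list in the lower levels of Cdkn1a, Ccng1 and Zmat3 was not tested. In RNA from sorted pools, fewer cells expressing a gene and less of its RNA per cell cannot be told apart.

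The second comparison asked what N1-AcSpd did within each population, using the same libraries. No p53 target gene was called in progenitors, where 0.614% of all tested genes were called, nor in HFSCs, where 0.325% were, nor for the effect averaged over both, where 4.87% were. DESeq2 called 0 as well, but it gave an adjusted p to 7 of the 10 within each population (not to Sesn2, Bbc3 and Eda2r) and to 8 for the average (not to Sesn2 and Eda2r). At an unadjusted p under 0.05 there were 2 in progenitors (Ccng1 and Phlda3), 0 in HFSCs and 1 for the averaged effect (Phlda3), beside 13.6%, 13.2% and 20.8% of all tested genes. No member had groups that did not overlap, against 9.05% of tested genes in progenitors and 6.81% in HFSCs.

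In progenitors 9 of the 10 values were positive and the median log2 fold change was 0.19, beside 0.00 over all genes. Ccng1 stood higher with N1-AcSpd in the progenitors of all 4 mice, by 0.26 on the log2 scale (SE 0.12, unadjusted p = 0.043, adjusted p = 0.349). Phlda3 did so as well, at 0.20 (SE 0.088, unadjusted p = 0.0438, adjusted p = 0.351), and so did Cdkn1a, at 0.15 (SE 0.081, adjusted p = 0.428). Mdm2 had the largest value, 0.34 (SE 0.21, adjusted p = 0.507), which was 0.11 without the untreated progenitor library of mouse 2. Zmat3 was the exception at -0.08 (SE 0.076, adjusted p = 0.725). In every case the treated and untreated progenitor libraries overlapped.

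In HFSCs 4 values were positive and 6 negative, with a median of -0.04 beside -0.01 over all genes. They ran from -0.33 (SE 0.28, adjusted p = 0.704) for Eda2r to 0.14 (SE 0.18, adjusted p = 0.88) for Sesn2. Cdkn1a, at -0.03 (SE 0.081, adjusted p = 0.947), differed by less than its SE. Phlda3, at 0.11 (SE 0.088, adjusted p = 0.682), was the member higher with N1-AcSpd in the HFSCs of all 4 mice.

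Phlda3 was therefore higher with N1-AcSpd in 8 of 8 paired libraries, and Ccng1 in 6 of 8. Averaged over both populations, their log2 fold changes were 0.15 (SE 0.062, adjusted p = 0.176) and 0.18 (SE 0.084, adjusted p = 0.254). With mouse as a replicate block, which removes the differences between mice from the error, both were called, Phlda3 at 0.15 (adjusted p = 0.02) and Ccng1 at 0.17 (adjusted p = 0.0318), and 8.14% of all tested genes were called in that fit. Neither was called within 1 population under the block.

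**Figure D3:**
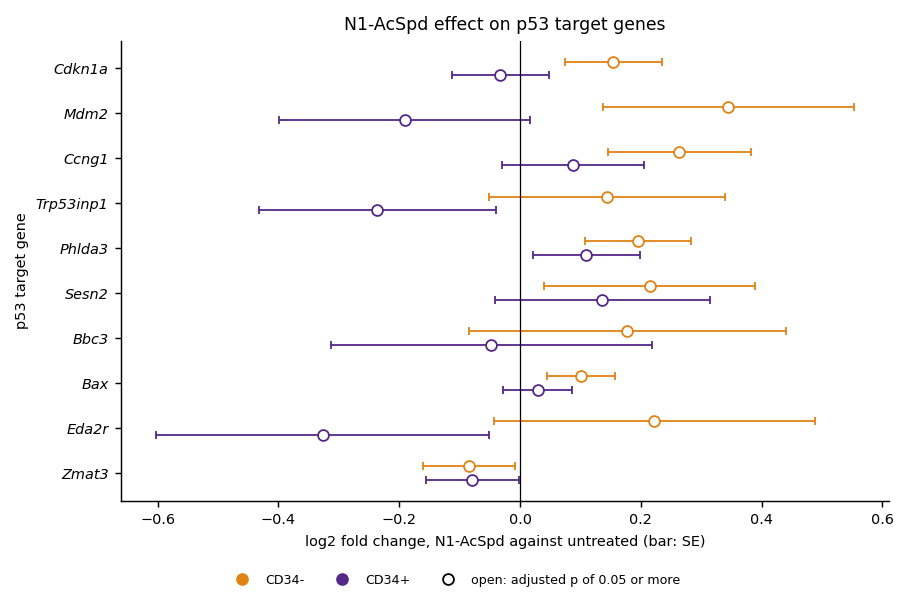
log2 fold change of the 10 p53 target genes with N1-AcSpd against untreated, with SE as error bars, in α6+/CD34- (orange) and α6+/CD34+ cells (purple). All points are open because no adjusted p was under 0.05. In CD34- cells 9 of 10 values lie above 0, and in CD34+ cells 4 do.

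Whether the treatment effect differed between the populations was tested as an interaction. 0 of the 10 genes were called, and 0% of all tested genes. At an unadjusted p under 0.05 there were 0 members as well, beside 4.19% of all tested genes, and DESeq2 called 0 of the 10 and 72 of all genes. The value was negative for 9 of the 10, that is, lower in HFSCs than in progenitors, with a median of -0.18 beside -0.01 over all genes. The smallest unadjusted p was that of Mdm2 (log2 difference -0.54, SE 0.29, unadjusted p = 0.0905, adjusted p = 1), and the difference was -0.30 without the untreated progenitor library of mouse 2. For Cdkn1a the difference was -0.19 (SE 0.11, adjusted p = 1). The cell type effects of Cdkn1a and Ccng1, larger in N1-AcSpd than in untreated cells by their values, were thus not shown to differ.

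The p53 family and the regulators of p53 gave a mixed picture. Of 16 listed genes 15 were tested, of which 4 were higher and 2 lower in untreated HFSCs, and 6 higher and 2 lower in N1-AcSpd HFSCs, with medians of 0.15 and 0.11. Over all tested genes the medians were 0.02 and -0.01, and 32.1% and 33.3% were called in either direction. Trp53 itself was at 20.9 ± 1.24, 21.2 ± 0.707, 21.5 ± 1.79 and 22.2 ± 1.75 CPM (SD, n = 4) in untreated progenitors, untreated HFSCs, N1-AcSpd progenitors and N1-AcSpd HFSCs, and the cell type effect was 0.03 (SE 0.068, adjusted p = 0.832) and 0.05 (SE 0.068, adjusted p = 0.684). mRNA does not show the amount or activity of the protein, which is set mainly by degradation. Trp63 was at 74.2 ± 2.42, 92.7 ± 7.20, 76.7 ± 5.05 and 101 ± 4.84 CPM in the same order and was higher in HFSCs by 0.32 (adjusted p = 0.00102) and 0.39 (adjusted p = 0.000181) on the log2 scale. Trp73, the third family member, was higher by 1.10 (adjusted p = 6.32e-05) and 1.505 (adjusted p = 3.84e-06).

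Among the negative regulators, Ppm1d, the phosphatase WIP1 that switches p53 signalling off, was not called (0.15, adjusted p = 0.483, and 0.00, adjusted p = 0.993). Mdm4, the partner of MDM2, was called lower by 0.12 and 0.15 on the log2 scale, but 98.8% as many UMIs were counted for the pseudogene Gm29257 that overlaps it, with plain library totals the difference was -0.01 and -0.03 and not called, and leaving out single libraries or mice removed the call in 8 and 2 of 20 runs. Its level is therefore uncertain. Cdkn2a, whose ARF product blocks MDM2, did not exceed 0.130 CPM in any library and was not tested. Atr, a kinase that signals stalled replication to p53, was lower by 0.86 (adjusted p = 4.51e-06) in untreated and 0.88 (adjusted p = 3.43e-06) in N1-AcSpd HFSCs, and Chek1, whose kinase product acts downstream of ATR, was higher by 0.26 (adjusted p = 0.0476) and 0.41 (adjusted p = 0.00341). The untreated Chek1 call held in 4 of 20 leave-out runs, whereas Trp63, Trp73 and Atr held in all 20. Kat5, an acetyltransferase of p53, was called higher by 0.31 and 0.32, but overlaps the much more abundant Rnaseh2c, and the calls held in 11 and 13 runs.

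A further list of 30 p53 target genes, of which 29 were tested, did not follow the 10. In untreated HFSCs 10 were higher and 6 lower, and in N1-AcSpd HFSCs 9 were higher and 8 lower, with medians of -0.05 and 0.04. The 16 and 17 of 29 called stand beside 32.1% and 33.3% of all tested genes, whose medians were 0.02 and -0.01. The largest increases were those of Sesn1, the relative of Sesn2 (1.55 and 1.38), Dram1, which promotes autophagy (0.82 and 0.97), and the death receptor gene Fas (0.79 and 0.98). Sesn1 stood at 2.47 to 3.11 CPM in untreated progenitors and 6.83 to 9.97 CPM in untreated HFSCs, with no overlap. The largest decreases were those of Plk3 (-1.08 and -1.40), Pmaip1, which encodes the BH3-only protein NOXA (-0.84 and -1.03), and Plk2 (-0.68 and -0.95), the polo-like kinases 2 and 3 being stress-responsive kinases. All 6 were called in both conditions and in all 20 leave-out runs, at adjusted p of at most 0.00143. Plk3 overlaps Tctex1d4, which had 46% as many UMIs. For N1-AcSpd 0 genes of this list were called in the edgeR fit, in either population, the average or the interaction. DESeq2 called Aen and Perp in progenitors (adjusted p = 0.0172 and 0.0188) and Sfn in HFSCs and in the average (0.0335 and 0.00516). With mouse as a replicate block Aen was called in progenitors (adjusted p = 0.0247), Gadd45a in HFSCs (0.0352), and Gadd45a, Gls2 and Sfn in the average (0.00524, 0.0336 and 0.0339).

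Of 14 genes of the BCL2 family and caspases, 12 were tested, and 4 were higher and 1 lower in HFSCs in each condition, with medians of 0.12 and 0.20. The 5 called in each condition stand beside 32.1% and 33.3% of all tested genes, whose medians were 0.02 and -0.01. Casp9 was called in untreated cells (0.68, adjusted p = 0.00961), with overlapping genes and in 17 of 20 runs, and Bcl2, which protects from apoptosis, in N1-AcSpd cells (0.35, adjusted p = 0.0492), in 5 of 20 runs. Casp8, the initiator caspase of death receptors, was lower by 0.45 (adjusted p = 0.000228) and 0.41 (adjusted p = 0.000355), with a gene model on the same strand that had 68.4% as many UMIs. Of this list 0 genes were called for N1-AcSpd by edgeR, with or without the block, or by DESeq2, which gave an adjusted p to 7 of the 12 in progenitors, 6 in HFSCs and 11 for the average. Of the regulators, Cop1, a ubiquitin ligase for p53, was called for the averaged effect (-0.14, adjusted p = 0.0493), in 1 of 20 leave-out runs, not under the block (adjusted p = 0.0577) and not with DESeq2, which called it in progenitors (adjusted p = 0.0233).

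**Figure D4:**
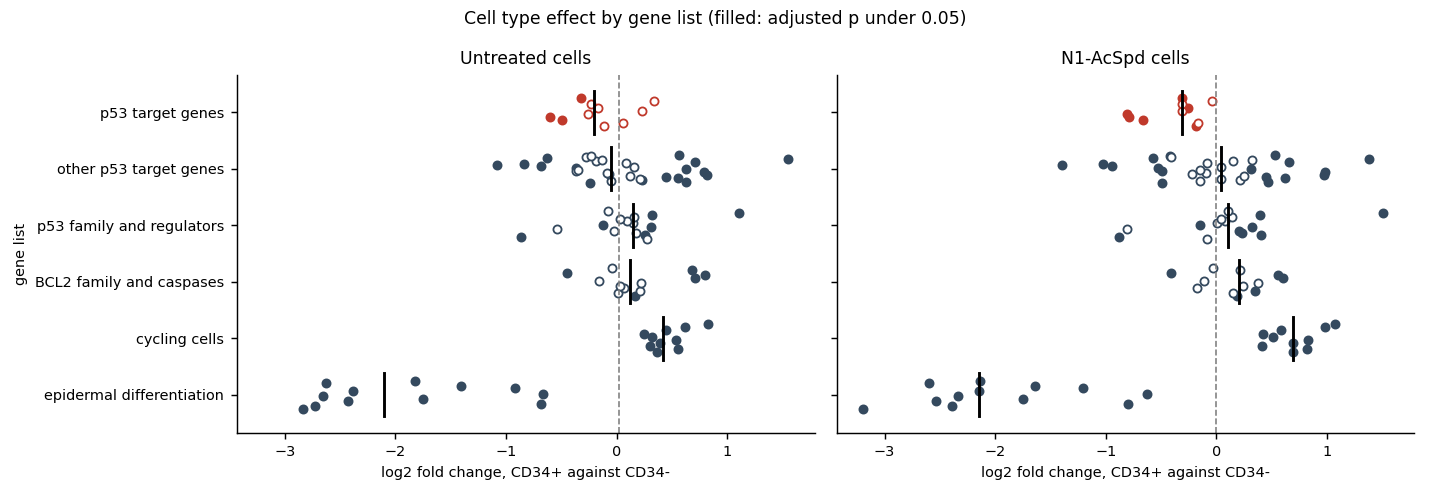
log2 fold change of single genes in α6+/CD34+ against α6+/CD34- cells by gene list, for untreated and N1-AcSpd-treated cells. Filled points have an adjusted p under 0.05, black bars are list medians and the dashed line is the median of all 19049 tested genes. The 10 p53 target genes (red) lie mostly below 0, the further p53 targets spread to both sides, cycling genes lie above and epidermal differentiation genes below 0.

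The mice themselves differed in some of these genes. Mice 2 and 4 lay above mice 1 and 3 in all 4 groups for Ccng1, Trp53inp1 and Phlda3, a pattern that was noticed in the values and then counted, and that 157 genes or 0.824% of all tested genes showed. Over its 4 libraries each, Ccng1 averaged 48.0, 60.3, 49.0 and 57.7 CPM in mice 1 to 4, Trp53inp1 14.1, 20.3, 14.0 and 18.5 CPM, and Phlda3 18.5, 21.7, 19.6 and 22.1 CPM. A test of the mouse term, added after these values were seen, called Trp53inp1 (adjusted p = 0.0248) and Ccng1 (0.0443) but not Phlda3 (0.0625), where 168 genes or 0.882% of all were called (edgeR). Cdkn1a (adjusted p = 0.181), Mdm2 (0.682) and the other 5 members (0.292 or more) were not called. Of the 29 further targets, Btg2 and Ei24 were also above in mice 2 and 4 in all groups without being called (adjusted p = 0.105 and 0.0903), and Gadd45a was below (adjusted p = 0.0292). The pattern was not limited to p53 targets, since the basal keratin gene Krt14 was above in mice 2 and 4 in all groups as well (adjusted p = 0.0298). In the labels the animal IDs of mice 1 and 3 begin with X and those of mice 2 and 4 with Y, and what the letters stand for is not given.

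**Figure D5:**
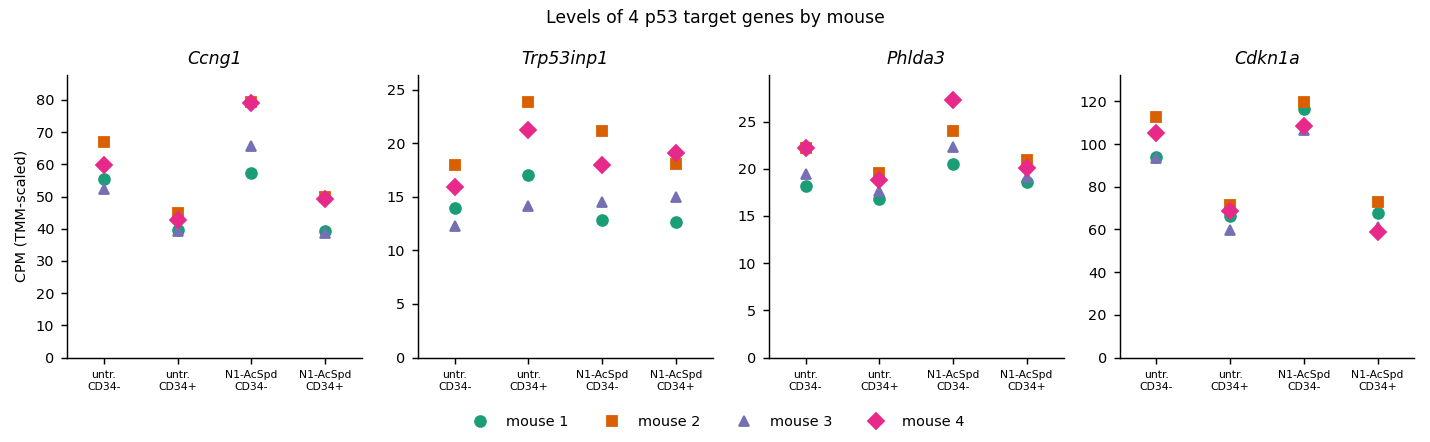
CPM (TMM-scaled) of Ccng1, Trp53inp1, Phlda3 and, for comparison, Cdkn1a in the 4 groups, with 1 symbol per mouse. Mice 2 (square) and 4 (diamond) lie above mice 1 and 3 in every group for the first 3 genes. For Cdkn1a they do so in the untreated groups only.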

How the data were processed

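The authors sequenced 3' ends of polyadenylated RNA with UMIs, separated reads by barcode with FLEXBAR, used kallisto 0.45.0 on mm10 and BEDTools, and counted unique UMIs per gene; per the submitters' notes FastQC 0.11.7 was run as well. The annotation release is not given in the sources used here. The deposited values are raw counts with 1 column per library, and 156050 empty cells were read as 0. Symbols and positions came from GENCODE vM21 on GRCm38, where 62 identifiers had no entry (0.116% of counts).

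All genes averaging 5 or more counts, 19049 in number, entered 1 edgeR fit (version 4.0.16, R 4.3.3; TMM, quasi-likelihood tests, all 16 libraries, a mean for each group) and were called at a Benjamini-Hochberg adjusted p under 0.05. All p-values are two-sided. Each SE was derived from the F statistic as |log2 fold change| / √F. For some genes, such as Sesn2, the p-value was larger than this SE alone would give. The SE, also drawn in the figures, can thus be too small. The fit was tested on simulated data. Depth was 15480075 to 29074855 UMIs, so that Eda2r and Sesn2 rest on few UMIs. No library was a copy of another. DESeq2 1.42.0, other scalings, filters, a fold threshold of 0.5 (log2) and leave-out runs were alternatives, as was mouse as a block. Replicate numbers pair the samples, since each number is 1 animal in the labels. Residuals of the same mouse correlated with a mean r of 0.032 (-0.115 to 0.148, 24 pairs), and those of other mice with -0.011 (72 pairs).

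Groups came from the sample labels. Members and lists were chosen with earlier results of these data known. All members were named. Trp53, Mdm4, Trp63, Trp73, Cdkn2a and Ppm1d were named in any case, and from each of the lists of regulators, further targets and BCL2 family genes the called genes with the 3 largest positive and the 3 largest negative log2 fold changes. Btg2, Ei24, Gadd45a, Krt14, Aen, Perp, Sfn, Gls2, Ccnb1 and Bub1 were named after their values were seen, and Sbsn, Tgm1, Flg and Ccna2 for their overlaps. Some genes that this rule would name are not reported here.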

Additional observations from a re-analysis of the deposited data

Results flagged for a closer look

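In the 40 sets of 4 libraries (10 p53 target genes in 4 groups), 1 library stood apart from the others of its group by Dixon's ratio, a test that chance alone passes in about 1 of 20 sets. Mdm2 in untreated CD34- progenitors of mouse 2 was at 11.1 CPM (174 UMIs), while the other mice were at 27.0 to 27.8 CPM, a ratio of 0.951, above the critical value for 4 libraries. Among 9573 genes with a median of at least 5 CPM in untreated progenitors, 101 were below 0.5 of the lowest other mouse in that library, beside 21 to 90 genes in the remaining 15 libraries. The part of this in the low value of Mdm2 was not tested.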

How the results depend on the processing

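The number of p53 target genes called for the cell type effect was 3 in untreated and 6 in N1-AcSpd cells. With mouse as a replicate block it was 5 in untreated cells, where Trp53inp1 and Phlda3 were added, and for the averaged treatment effect the block gave 2 in place of 0. It changed no other call of a member. With a fold threshold added, 1 and 3 were called, and with plain library totals for scaling 2 in N1-AcSpd cells. Leaving out 1 library or 1 mouse gave 2 to 4 in untreated and 3 to 7 in N1-AcSpd cells, and 0 in all runs for both treatment effects, their average and the interaction. Scaling by library totals moved the median of all genes to 0.14 and 0.11, and the called genes to 4862 higher and 1759 lower in untreated and 4794 and 1903 in N1-AcSpd cells, from 3059 and 3064 and from 3147 and 3200. No call of a member changed direction under any alternative. Over all genes, the treatment effect calls ran from 0 to 558 in progenitors (117 as reported), 3 to 423 in HFSCs (62) and 94 to 1585 averaged (928), and interaction calls from 0 to 72 (0). DESeq2 gave the highest of these counts. The fold threshold left 2913 of 6123 cell type calls in untreated and 3197 of 6347 in N1-AcSpd cells. Depth limits Eda2r and Sesn2 most, at 12 to 59 UMIs a library.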
